A study of Rattus norvegicus with 6 samples.

Results

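Tsc22d3, Fkbp5, Sgk1, Zbtb16, Nr3c1, Hsd11b1, Klf9, Usp2, Alas1 and Por are genes of glucocorticoid signalling and of the daily output of the liver clock, and their levels in the livers of rats with and without CCl4-induced fibrosis are described here. They, like the lists of further genes below, were chosen by name with earlier results of these data known. Each gene of the expression table that carried 1 of these 10 symbols was taken, which gave 12 entries of the 19616 genes listed. Nr3c1 and Tsc22d3 each stood under 2 Ensembl identifiers. All 12 entries were among the 14864 genes with a mean level of at least 0.1 FPKM that were tested. FPKM scales the fragments on a gene by transcript length and library size, so that levels of different genes can be set side by side.

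The question was how gene expression in the liver differs between fibrotic and control rats. All rats were male SD (Sprague-Dawley) rats, and a single liver library was made from each. CL5, CL6 and CL7 (CL group) received olive oil only. For FL2, FL5 and FL12 (FL group) the oil carried carbon tetrachloride (CCl4, a solvent toxic to hepatocytes). Each dose, alike in volume for both groups, was 2 mL/kg into the peritoneum. There were 2 doses in each of 5 weeks. The age of the rats, the hour at which they were killed and their feeding before it are not given in the sources used here, and the hour matters for rhythmic genes because their RNA cycles within a day.

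Glucocorticoids enter hepatocytes and bind the glucocorticoid receptor, which a chaperone complex holds ready in the cytoplasm and which then moves to the nucleus and changes the transcription of its target genes. In the liver these targets include enzymes of glucose production and amino acid breakdown, and the hormone itself peaks in the blood shortly before the active phase of the animal. The liver clock acts on an overlapping set of genes, partly through the PAR bZIP transcription factors Dbp, Tef and Hlf, and daily rhythms are well known for genes of heme synthesis and drug oxidation.

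The label liver was checked against 7 hepatocyte genes. Their summed level was 50308 FPKM in CL5, 47877 in CL6 and 48369 in CL7, and 40840 in FL2, 42540 in FL5 and 41492 in FL12, with Alb, the gene of albumin, the most abundant in every rat. Of the 7, 0 passed the limma test at the adjusted threshold of 0.05, 1 having an unadjusted p below it. Yet every FL rat was below every CL rat for Alb, Ttr and Hnf4a and above for Apoa1 and Tf. The moderated standard error was large for Alb (0.98 in log2), so not passing does not show that these genes did not differ. In bulk liver fewer cells of a type and less RNA per cell cannot be told apart, for these genes as for those below. The sum of FPKM over all genes ranged from 309425 to 340467 for the CL rats and from 272110 to 309226 for the FL rats. The number of reads of each rat is not given in the sources used here, and the spacing of low U6 values placed the depth relative to CL5 at 0.656 in CL6, 0.84 in CL7, 0.677 in FL2, 0.75 in FL5 and 0.677 in FL12.

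Of the 12 entries, 3 were upregulated in the FL group (Fkbp5, Usp2 and Por), 1 was downregulated (Zbtb16) and 8 did not pass the test. Of all genes tested, 16.9% passed as higher and 1.94% as lower. With a fold change of at least 2 required besides, Usp2 was upregulated and Zbtb16 downregulated, against 9.29% of all genes higher and 0.935% lower. Without FL2 the log2 difference of Zbtb16 was −0.99, which does not reach that fold. All FL rats were above all CL rats for 3 entries and below them for 2, Zbtb16 and Hsd11b1, against 35.7% and 4.78% of all genes. The median log2 difference (FL minus CL) was 0.06 over the 12 entries and 0.29 over all genes tested, so a gene at the median of the table was itself listed higher in the FL rats. Median scaling brought the median of all genes to 0.08 and quantile normalization to −0.04. Of the genes that passed, 89.7% were higher in the FL group without scaling, 70.9% with median scaling and 59.2% with quantile normalization. Usp2 and Zbtb16 passed in the same direction under both scalings, whereas Fkbp5 and Por kept their sign and did not pass.

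**Figure D1:**
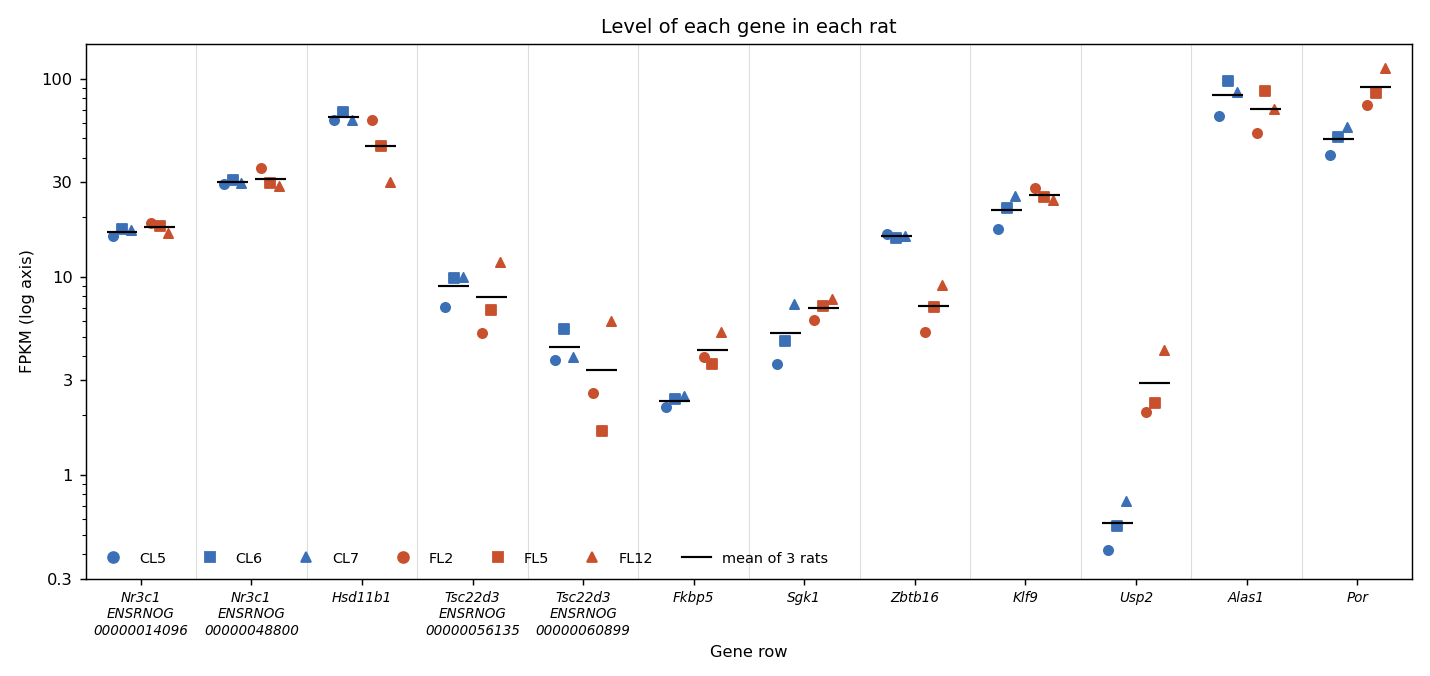
FPKM of the 12 entries on a log axis, with a point for each rat (blue CL5, CL6 and CL7, red FL2, FL5 and FL12) and a black line at the mean of 3 rats. The FL points lie above the CL points for Fkbp5, Usp2 and Por and below them for Zbtb16 and, by a narrow margin, Hsd11b1.

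Nr3c1, which encodes the glucocorticoid receptor, lies on chromosome 18. Its entry ENSRNOG00000048800 stood at 29.29 FPKM in CL5, 30.70 in CL6 and 29.97 in CL7, and at 35.37 in FL2, 29.87 in FL5 and 28.65 in FL12. The highest and the lowest value of this entry both came from FL rats, and the groups overlapped. Its entry ENSRNOG00000014096 stood at 16.15, 17.44 and 17.16 FPKM in the CL rats and at 18.63, 18.07 and 16.61 FPKM in the FL rats in the same order, again with overlap. The log2 differences were 0.06 ± 0.12 (SE, 95% interval −0.21 to 0.33, adjusted p = 0.759) and 0.07 ± 0.10 (95% interval −0.17 to 0.31, adjusted p = 0.661). Neither passed, and both were below 0 under median scaling (−0.17 and −0.15) and quantile normalization (−0.08 and −0.09). The authors used uniquely located reads, so a read that fits both entries would not be counted, and the level of each Nr3c1 entry is uncertain as a level of the receptor RNA.

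Hsd11b1 on chromosome 13 encodes the enzyme that turns the inert keto form of the hormone into active corticosterone inside hepatocytes. It stood at 61.74 FPKM in CL5, 68.06 in CL6 and 62.13 in CL7, and at 61.72 in FL2, 45.60 in FL5 and 30.08 in FL12. FL2 was level with CL5, and FL12 was the lowest of the 6 rats, so that the SD was 15.8 FPKM in the FL group against 3.54 FPKM in the CL group. Means were 64.0 FPKM and 45.8 FPKM (n = 3 each), and the log2 difference of −0.54 ± 0.24 (SE, adjusted p = 0.145) did not pass. Without FL2 it was −0.79 and passed (adjusted p = 0.0271), and without FL12 it was −0.27, with adjusted p between 0.0271 and 0.311 over all alternatives. Zbtb16 and Hsd11b1 were the members with every FL value under the lowest CL value.

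The list of 16 further genes of the receptor complex and of corticosteroid metabolism had 0 higher and 2 lower by limma (0% and 12.5%, beside 16.9% and 1.94% of all genes), 3 having an unadjusted p below 0.05, with a median log2 difference of 0.05. It includes the chaperone genes Hsp90aa1, at 0.07 to 0.29 FPKM, and Hspa8, at 0.89 to 1.31 FPKM, named after their values were seen. Levels this low say little about these chaperones. Nrip1, a corepressor of nuclear receptors, was downregulated from 7.90, 9.31 and 7.83 FPKM in the CL rats to 5.25, 5.24 and 5.76 FPKM in the FL rats (log2 difference −0.61, adjusted p = 0.0154). Hsd11b2, whose product inactivates corticosterone in kidney and colon, was listed at 0.67, 0.63 and 1.07 FPKM in the CL rats, at 0.26 FPKM in FL5 and at 0 in FL2 and FL12, and passed as lower (adjusted p = 0.0198) at low levels. Nrip1 did not pass without CL6 or FL5 (adjusted p 0.00658 to 0.0577 over the alternatives), nor Hsd11b2 without CL5, CL6, CL7 or FL12 (0.0119 to 0.0886). Fkbp4, the co-chaperone that favours transport of the receptor to the nucleus and a paralog of the member Fkbp5, stood at 45.70, 41.77 and 39.13 FPKM in the CL rats and at 29.66, 26.74 and 37.57 FPKM in the FL rats. All FL rats were below all CL rats for Fkbp4, and the difference of −0.44 did not pass (adjusted p = 0.0749), although it did with median scaling and without FL12 (adjusted p 0.0236 to 0.209 over the alternatives). Serpina6, the gene of the plasma carrier of corticosterone, ranged from 259.24 to 366.10 FPKM in the CL rats and from 217.73 to 300.44 FPKM in the FL rats, did not pass, and was named after its values were seen.

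Fkbp5 on chromosome 20 encodes a co-chaperone that lowers the affinity of the receptor for its hormone and that the receptor itself induces. It stood at 2.21 FPKM in CL5, 2.41 in CL6 and 2.50 in CL7, and at 3.93 in FL2, 3.64 in FL5 and 5.30 in FL12. The 3 CL rats lay close together, every FL rat was above them, and FL12 was the highest. The mean rose from 2.37 ± 0.148 FPKM to 4.29 ± 0.887 FPKM (SD, n = 3 each), a log2 difference of 0.81 ± 0.17 (SE, 95% interval 0.41 to 1.21, adjusted p = 0.0188), or 0.52 above the median of all genes. Fkbp5 did not pass with median scaling (log2 difference 0.59, adjusted p = 0.0557), with quantile normalization (0.44, adjusted p = 0.155) or without CL5, CL6 or CL7 (adjusted p = 0.0631, 0.0545 and 0.059), and its adjusted p ranged from 0.0136 to 0.155 over the alternatives.

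Zbtb16 on chromosome 8 encodes a zinc finger transcription factor, also known as PLZF, and is a receptor target in many tissues. It stood at 16.43 FPKM in CL5, 15.70 in CL6 and 16.13 in CL7, and at 5.29 in FL2, 7.06 in FL5 and 9.14 in FL12. The CL rats were nearly alike, and the highest FL rat, FL12, was still well below the lowest CL rat. The mean fell from 16.1 ± 0.367 FPKM to 7.16 ± 1.93 FPKM (SD, n = 3 each), a log2 difference of −1.19 ± 0.19 (SE, 95% interval −1.62 to −0.76, adjusted p = 0.00702), or −1.48 relative to the median of all genes. Zbtb16 passed in each of the 14 alternatives, with log2 differences of −1.41 to −0.99 and adjusted p of 0.00539 to 0.0353.

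Tsc22d3 on the X chromosome encodes GILZ, a leucine zipper protein that glucocorticoids induce in many cell types. Its entry ENSRNOG00000056135 stood at 7.01 FPKM in CL5, 9.88 in CL6 and 10.02 in CL7, and at 5.19 in FL2, 6.79 in FL5 and 11.88 in FL12. Its entry ENSRNOG00000060899 stood at 3.80, 5.48 and 3.94 FPKM in the CL rats and at 2.60, 1.66 and 5.96 FPKM in the FL rats. In both Tsc22d3 entries FL2 and FL5 lay below every CL rat and FL12 above every CL rat, so the groups overlapped through FL12. The log2 differences were −0.24 ± 0.29 (SE, adjusted p = 0.586) and −0.54 ± 0.41 (SE, adjusted p = 0.375), and neither passed. Without FL12 the difference of ENSRNOG00000060899 was −1.03 and passed (adjusted p = 0.0473, range over the alternatives 0.0473 to 0.82), and without FL2 that of ENSRNOG00000056135 was 0.02. Reads that fit both Tsc22d3 entries would not be counted either, so each level is uncertain.

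Sgk1, which encodes a kinase that regulates ion transport and is induced by serum and glucocorticoids, and Klf9, which encodes a Krüppel-like transcription factor and receptor target, both lie on chromosome 1. Sgk1 stood at 3.62 FPKM in CL5, 4.75 in CL6 and 7.28 in CL7, and at 6.07 in FL2, 7.16 in FL5 and 7.74 in FL12. Klf9 stood at 17.40, 22.35 and 25.72 FPKM in the CL rats and at 28.01, 25.39 and 24.34 FPKM in the FL rats. For both genes CL5 was the lowest of all rats and CL7 reached into the range of the FL rats. The spread within the CL group was the larger for each, with an SD of 1.87 FPKM against 0.848 FPKM for Sgk1 and of 4.18 FPKM against 1.89 FPKM for Klf9. The log2 difference was 0.47 ± 0.24 (SE, adjusted p = 0.205) for Sgk1 and 0.26 ± 0.16 (SE, adjusted p = 0.263) for Klf9, which did not pass, and the latter was −0.03 relative to the median of all genes. Without CL5 the difference was 0.24 for Sgk1 and 0.11 for Klf9, without CL7 0.73 and 0.39, and with median scaling 0.25 and 0.04.

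Among 27 further glucocorticoid-responsive entries 5 were higher and 2 lower in the FL group (18.5% and 7.41%, beside 16.9% and 1.94% of all genes), with a median log2 difference of 0.38. Higher were the Mt1 entry ENSRNOG00000038047 (metallothionein, log2 difference 2.58, adjusted p = 0.0144), Anxa1 (annexin, 1.12, adjusted p = 0.0153), Glul (glutamine synthetase, 0.73, adjusted p = 0.0344), Nfkbia (inhibitor of NF-κB, 0.72, adjusted p = 0.0163) and, named after its values were seen, Txnip (0.55, adjusted p = 0.0476). With either scaling 2 were higher and 2 lower, and without FL5 0 were higher and 2 lower, whereas without FL2 9 were higher and 4 lower. The Mt1 entry that passed stood at 56.51, 59.98 and 129.46 FPKM in the CL rats and at 901.54, 470.39 and 221.62 FPKM in the FL rats. The other Mt1 entry, ENSRNOG00000025764, stood at 4.86, 7.70 and 15.02 FPKM in the CL rats and at 25.76, 30.10 and 6.58 FPKM in the FL rats, overlapped between the groups and did not pass (1.05, adjusted p = 0.244). It passed without FL12 (1.74, adjusted p = 0.0453, range over the alternatives 0.0453 to 0.531). The Mt1 entries lie on chromosomes 17 and 19, and their levels are uncertain if they share sequence. The Mt1 entry, Anxa1, Glul, Nfkbia and Txnip all did not pass without CL5, nor without FL5. They had adjusted p over the alternatives of up to 0.0531, 0.0607, 0.126, 0.0818 and 0.288, and did not pass in 3, 4, 8, 5 and 10 of the 14. Nfkbia and Txnip did not pass with either scaling, nor Glul with median scaling or Anxa1 with quantile normalization. Lower were Pdk4, a kinase that restrains pyruvate oxidation (−1.17, adjusted p = 0.00861), and Lpin1, a phosphatidate phosphatase (−0.83, adjusted p = 0.00414), and both passed in each of the 14 alternatives. Tat, the tyrosine aminotransferase long used as a measure of glucocorticoid action in liver, stood at 91.01, 59.08 and 67.05 FPKM in the CL rats and at 82.13, 122.95 and 188.05 FPKM in the FL rats, and its difference of 0.80 did not pass (adjusted p = 0.098). Per1, a clock gene that the receptor also induces, stood at 0.88, 1.82 and 2.17 FPKM in the CL rats and at 1.80, 4.14 and 7.27 FPKM in the FL rats and did not pass (1.27, adjusted p = 0.113). Without FL2 both Tat and Per1 passed (adjusted p = 0.0237 and 0.0243, the lowest of ranges that reach 0.239 and 0.295).

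Usp2 on chromosome 8 encodes a deubiquitinating enzyme whose RNA cycles in the liver. It stood at 0.42 FPKM in CL5, 0.55 in CL6 and 0.74 in CL7, and at 2.08 in FL2, 2.32 in FL5 and 4.29 in FL12. Every FL rat was well above every CL rat, and FL12 was apart from the other FL rats. The mean rose from 0.57 ± 0.161 FPKM to 2.90 ± 1.21 FPKM (SD, n = 3 each), a log2 difference of 2.12 ± 0.31 (SE, 95% interval 1.39 to 2.84, adjusted p = 0.00592), or 1.83 above the median of all genes. This is 4.34-fold on the scale of FPKM + 0.1, which understates the fold of a gene as low as Usp2, and the ratio of the means was 5.08. Usp2 ranked 323 among the 14864 genes by the size of its log2 difference. It passed in each of the 14 alternatives (adjusted p 0.00493 to 0.0236), with a difference of 1.27 at a pseudocount of 1.

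Por on chromosome 12 encodes the reductase that passes electrons from NADPH to the microsomal cytochromes P450. It stood at 41.44 FPKM in CL5, 50.92 in CL6 and 57.26 in CL7, and at 73.56 in FL2, 84.90 in FL5 and 113.45 in FL12. All FL rats were above all CL rats, with FL12 the highest. The mean rose from 49.9 ± 7.96 FPKM to 90.6 ± 20.6 FPKM (SD, n = 3 each), a log2 difference of 0.85 ± 0.19 (SE, 95% interval 0.41 to 1.29, adjusted p = 0.0221), or 0.56 above the median of all genes. Por did not pass with median scaling (0.62, adjusted p = 0.0679), with quantile normalization (0.81, adjusted p = 0.0619) or without CL5, CL6, FL5 or FL12 (adjusted p = 0.0714, 0.062, 0.062 and 0.0516), and its adjusted p ranged from 0.0147 to 0.0714 over the alternatives.

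Alas1 on chromosome 8 encodes the rate-limiting enzyme of heme synthesis in hepatocytes, and heme is the cofactor of the enzymes that Por serves. It stood at 65.00 FPKM in CL5, 97.12 in CL6 and 86.28 in CL7, and at 53.39 in FL2, 86.57 in FL5 and 70.30 in FL12. The groups overlapped, and the spread within each group (SD 16.3 FPKM and 16.6 FPKM) was larger than the distance between the means of 82.8 FPKM and 70.1 FPKM. The log2 difference of Alas1 was −0.25 ± 0.21 (SE, 95% interval −0.74 to 0.25, adjusted p = 0.436) and did not pass in any of the 14 alternatives, over which it ranged from −0.47 with median scaling to −0.07 without FL2.

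**Figure D2:**
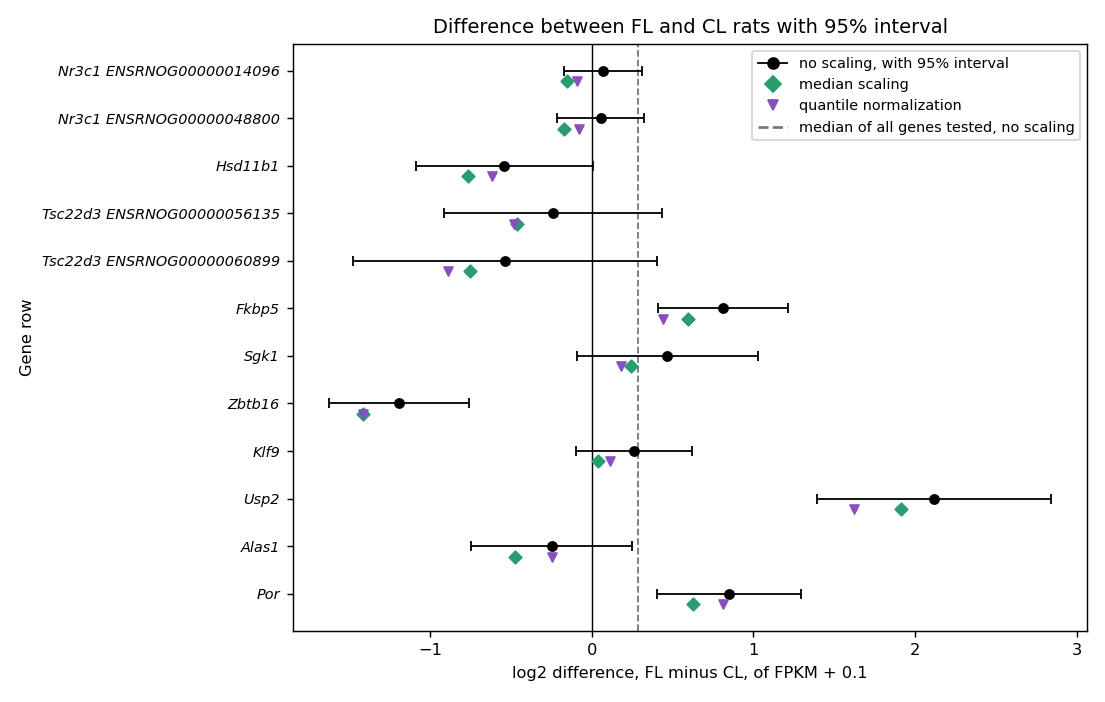
Log2 difference (FL minus CL) of FPKM + 0.1 for the 12 entries. Black points and bars give the estimate of limma with its 95% interval, green diamonds and purple triangles the estimate with median scaling and quantile normalization, and the dashed line the median of all genes tested without scaling (0.29). The intervals of Fkbp5, Usp2 and Por lie above 0 and that of Zbtb16 below it, and both Nr3c1 entries change sign under the scalings.

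Of 16 other genes of heme metabolism and of electron transfer to P450, 2 were higher and 1 lower (12.5% and 6.25%, beside 16.9% and 1.94% of all genes), with a median log2 difference of −0.06. Hmox1, heme oxygenase, and Blvra, biliverdin reductase, which act in turn on heme and its product, had higher values that passed without scaling (1.06, adjusted p = 0.0384, and 0.94, adjusted p = 0.0349). Neither passed with either scaling, without a filter, without a trend, or without CL5, CL7 or FL5, nor did Hmox1 without FL2 or Blvra without FL12. Adjusted p over the alternatives was 0.0213 to 0.132 for Hmox1 and 0.0264 to 0.115 for Blvra. Cyb5r3, a reductase of cytochrome b5, was downregulated (−0.58, adjusted p = 0.0192), opposite in sign to Por, and did not pass without CL5, CL6 or FL5 (0.00798 to 0.0694). Among 12 further rhythmic output genes that were tested, 2 were higher and 0 lower (16.7% and 0%, beside 16.9% and 1.94% of all genes), 5 in all having an unadjusted p below 0.05, with a median of 0.32. The 2 higher genes were Cyp7a1, the rate-limiting enzyme of bile acid synthesis, at 51.11, 26.97 and 29.43 FPKM in the CL rats and 96.25, 89.15 and 201.61 FPKM in the FL rats (1.80, adjusted p = 0.0134), and Gys2, the liver glycogen synthase (0.72, adjusted p = 0.017). Cyp7a1 did not pass without CL7 (0.0109 to 0.0573 over the alternatives), nor Gys2 with median scaling or without CL5, CL7 or FL5 (0.0159 to 0.0789).

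The list of 19 clock and PAR bZIP genes had 11 higher and 6 lower in the FL group (57.9% and 31.6%, beside 16.9% and 1.94% of all genes). The median was 1.07, over genes that moved in both directions. The hour at which the rats were killed is not given. Its part in these differences, and in those of Usp2 and the other rhythmic genes, was not tested. The 6 lower became 3 without CL6, CL7 or FL5 and without a trend, 4 without CL5 or FL12, and 7 with either scaling. Dbp stood at 0.46, 0.91 and 0.81 FPKM in the CL rats and at 25.61, 27.10 and 31.75 FPKM in the FL rats (5.13, adjusted p = 1.26e-04). Per3 (3.89), Ciart (2.83), Bhlhe41 (2.60) and Nr1d1 (2.56) were upregulated as well, and Npas2 was downregulated (−1.99). Ciart and Bhlhe41 were listed at 0.05 FPKM or less in the CL rats, so that their differences depend on the pseudocount. The 6 genes named, Dbp among them, passed in every alternative in which they were tested.

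Levels were also ordered across the members within each group. In the CL rats Alas1 was the highest, followed by Hsd11b1, Por, Nr3c1 ENSRNOG00000048800, Klf9, Nr3c1 ENSRNOG00000014096, Zbtb16, Tsc22d3 ENSRNOG00000056135, Sgk1, Tsc22d3 ENSRNOG00000060899, Fkbp5 and Usp2. Of the 11 pairs of neighbours in this order, 5 overlapped in their rats: Alas1 with Hsd11b1, Klf9 with the lower Nr3c1 entry, that entry with Zbtb16, and Sgk1 with each Tsc22d3 entry. Within each CL rat, however, Alas1 was above Hsd11b1, Klf9 above the lower Nr3c1 entry and Tsc22d3 ENSRNOG00000056135 above Sgk1. The lower Nr3c1 entry and Zbtb16 changed order between CL rats, as did Sgk1 and Tsc22d3 ENSRNOG00000060899. In the FL rats Por (90.6 FPKM) came before Alas1 (70.1 FPKM), and Zbtb16 (7.16 FPKM) stood between Tsc22d3 ENSRNOG00000056135 (7.95 FPKM) and Sgk1 (6.99 FPKM). Fkbp5 (4.29 FPKM) came before Tsc22d3 ENSRNOG00000060899 (3.41 FPKM). Usp2 was again the lowest by its mean, but in FL5 it was above Tsc22d3 ENSRNOG00000060899 (2.32 against 1.66 FPKM). There 7 of the 11 pairs of neighbours overlapped. Among them were Por with Alas1, Alas1 with Hsd11b1 and Fkbp5 with Tsc22d3 ENSRNOG00000060899. The order of these named pairs is not resolved by 3 rats. Hsd11b1 overlapped with Nr3c1 ENSRNOG00000048800 across rats but was above it within each FL rat.

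For each member the gene with the most similar profile over the 6 rats was sought by Pearson's r on log2 values among the genes whose mean reached 1 FPKM, 10534 for a member with a single entry and 10533 for Nr3c1 and Tsc22d3, whose own entries were left out. Zbtb16 was followed most closely by Ghr, the growth hormone receptor (r = 0.994, n = 6), which stood at 94.10, 89.87 and 85.26 FPKM in the CL rats and at 48.05, 56.02 and 64.37 FPKM in the FL rats. As with Zbtb16, FL2 had the lowest and FL12 the highest value of the FL rats. Usp2 was closest to Klrg1 (r = 0.998), Por to Lhfp (r = 0.995), Fkbp5 to LOC498368 (r = 0.996), Hsd11b1 to Rnf39 (r = 0.990), Sgk1 to Synj2 (r = 0.990), Klf9 to Prickle3 (r = 0.986) and Alas1 to Fam20a (r = 0.986). The Nr3c1 entries were closest to Timd2 (r = 0.992 for ENSRNOG00000048800) and Tmem219 (r = 0.988), and the Tsc22d3 entries to Gtpbp4 (r = 0.991 for ENSRNOG00000056135) and Tsen15 (r = 0.984). With 6 rats in 2 groups and so many genes searched, values of this size describe these rats and nothing more.

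Markers of some other cell types moved with the group. The share that passed as higher was 66.7% for stellate cell or myofibroblast, 57.1% for macrophage and 100% for neutrophil markers. It was 16.7% for lymphocyte, 20% for endothelial and 0% for cholangiocyte and erythroid markers, beside 16.9% of all genes. In each of these lists 0% passed as lower, beside 1.94% of all genes. Of 6 stellate cell or myofibroblast markers 4 were higher, and their summed level was 66.26 FPKM in CL5, 70.57 in CL6 and 64.87 in CL7, and 178.62 in FL2, 485.98 in FL5 and 449.98 in FL12, mostly from Col3a1. Of 7 macrophage markers 4 were higher, with sums of 95.89, 93.62 and 93.76 FPKM and of 240.81, 220.43 and 153.40 FPKM. Clec4f was the most abundant over the 6 rats together, though Marco exceeded it in FL2 (79.01 against 66.59 FPKM) and Lyz2 (33.98 FPKM), Cd68 (31.81 FPKM) and Marco (31.46 FPKM) exceeded it in FL12 (26.27 FPKM). Both sums were higher in every FL rat than in any CL rat. Of 3 neutrophil markers tested 3 were higher (sums of 0.20, 0.74 and 1.06 FPKM and of 4.35, 1.88 and 3.82 FPKM, S100a8 most abundant over the 6 rats together, Mpo at 0 in the CL rats and in FL5). Of 6 lymphocyte markers tested Ptprc alone, a gene carried by all leukocytes, was higher (sums of 5.08, 4.76 and 4.97 FPKM and of 11.10, 14.76 and 10.50 FPKM, Ptprc most abundant, Ms4a1 at 0 in CL5). Without Ptprc the sums were 1.89, 1.51 and 1.85 FPKM and 2.98, 4.57 and 1.78 FPKM and overlapped between the groups. Of 5 endothelial markers Stab2 was higher (sums of 71.36, 69.60 and 61.86 FPKM and of 85.15, 68.03 and 77.38 FPKM, Kdr most abundant over the 6 rats together, but at 15.87 FPKM in FL12 below Lyve1 at 23.76 FPKM and Stab2 at 21.20 FPKM), and 0 of 5 cholangiocyte markers (5.38, 7.75 and 5.58 FPKM and 5.38, 8.06 and 11.26 FPKM, Epcam most abundant) and 0 of 3 erythroid markers (86.72, 152.21 and 108.35 FPKM and 120.50, 45.27 and 46.72 FPKM, Hbb most abundant) passed, 1 of each having an unadjusted p below 0.05. The part of these cells in the values of Fkbp5, Usp2, Por, Zbtb16 and the other members was not tested.

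Promoters of 8 of the 10 members, all but Hsd11b1 and Zbtb16, were read as 13 windows from RefSeq sequence (rat build GRCr8), each from 250 bases before to 50 bases after a transcription start. Sequence outside these windows was not searched, so sites farther from a start would not be seen. On both strands 0 of the 8 genes held the glucocorticoid response element GNACA, 3 bases, TGTNC (in 0.439% of all 33469 windows), the single site AGAACA (20.7%), the D-box TTATGTAA or TTACGTAA bound by PAR bZIP factors (1.01%) or the E-box CACGTG (6.42%). AGGTCA, a site bound by many nuclear receptors, was in 2 of the 13 windows (15.4%), those of Usp2 and Por, beside 16.2% of all windows, a share close to the background. The 250 bases before the start of Usp2 and Por are shown because they hold the motif, with AGGTCA, or TGACCT where it lies on the other strand, in capitals. Usp2 and Por were upregulated, and Fkbp5, also upregulated, had no match in its window. The Usp2 sequence is chr8:53310620-53310869 on the plus strand with the motif 70 bases before the start (position −70), and the Por sequence is chr12:26635810-26636059 on the minus strand with the motif at −217.
Usp2: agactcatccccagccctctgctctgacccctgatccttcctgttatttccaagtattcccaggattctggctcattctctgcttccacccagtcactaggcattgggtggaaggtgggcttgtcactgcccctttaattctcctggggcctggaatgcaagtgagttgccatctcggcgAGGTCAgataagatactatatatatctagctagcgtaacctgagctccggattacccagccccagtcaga
Por: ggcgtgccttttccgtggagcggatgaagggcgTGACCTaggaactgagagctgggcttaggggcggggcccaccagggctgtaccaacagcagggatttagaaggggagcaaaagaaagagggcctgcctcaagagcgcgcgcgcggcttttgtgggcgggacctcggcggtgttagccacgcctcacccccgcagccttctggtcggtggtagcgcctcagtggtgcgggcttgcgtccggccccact
A match is a description of these letters, and whether a factor binds there was not tested.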

How the data were processed

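Total RNA from the livers of 6 rats was depleted of ribosomal RNA and sequenced. The authors aligned trimmed reads with TopHat2 and deposited FPKM from uniquely located reads, with 2 decimals and no pooling. The submitters name GRCh38 as genome, although the gene identifiers are of the rat. A further 2 columns of values that match no sample were not used. Rats were grouped by their labels. Identical values above 0 were shared by 0.99% to 2.87% of genes between rats.

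log2(FPKM + 0.1) was compared between FL and CL rats (3 each) with limma 3.58.1 (R 4.3.3), with a variance trend, and p-values were adjusted by Benjamini-Hochberg over the 14864 genes whose mean reached 0.1 FPKM. Adjusted p under 0.05 passed. The procedure was tested on simulated data. Motifs and figures were made with Python 3.11.15 and matplotlib 3.10.9. The members and lists were chosen with earlier results of these data known. All members, Dbp, Per1, Tat, Fkbp4, up to 6 genes of each list that passed, by size of the log2 difference, and the gene most similar to each member were named. Alternatives were other pseudocounts (1, 0.01), filters, scalings, priors, and leaving out each rat. A further lymphocyte marker is not reported here and entered no sum.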

Additional observations from a re-analysis of the deposited data

How the results depend on the processing

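Usp2, Zbtb16, Sgk1, Klf9 and Alas1 kept their direction and their side of the threshold in all 14 alternatives, but the size of Sgk1 (0.18 to 0.73), Klf9 (0.04 to 0.39) and Alas1 (−0.47 to −0.07) moved widely. No paired analysis was made, because the rats were divided at random between the groups and no pairing is described. The count of all genes that passed, 2806, was 1834 with median scaling, 1314 with quantile normalization and 1063 to 3536 with a rat left out. Of the members 4 passed, and 2 did with median scaling, 2 with quantile normalization and 2 to 5 with a rat left out. The receptor list had 2 genes that passed, 1 at a mean of at least 1 FPKM, 3 with median scaling (0 higher, 3 lower) and 0 to 2 with a rat left out. The further glucocorticoid-responsive genes had 7 (5 higher), and 4 with either scaling (2 higher) and 2 (0 higher, without FL5) to 13 (9 higher, without FL2) with a rat left out. The clock list had 17, and 13 to 17 in the alternatives. The further rhythmic output genes had 2, 1 with median scaling, 3 with quantile normalization (2 higher, 1 lower) and 0 to 7 with a rat left out, and the heme list had 3 (2 higher, 1 lower), 3 with median scaling (0 higher, 3 lower), 1 without a filter, 1 with quantile normalization and 1 without a trend (0 higher in each), and 0 to 3 with a rat left out. Nr3c1 ENSRNOG00000014096 reversed to −0.15 with median scaling and −0.091 with quantile normalization, and Nr3c1 ENSRNOG00000048800 to −0.17 and −0.076. With a rat left out the latter ranged from −0.035 to 0.12, reversing without FL2, and Tsc22d3 ENSRNOG00000056135 ranged from −0.57 to 0.021, also reversing without FL2. Dusp1 ranged from −1.63 to 0.18, reversing without FL12. Fits without a rat rest on 5 libraries. The cause of the other shifts was not tested. Read counts of the rats were not used here, so no counting error is given for low values.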

Other observations

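Within the CL group the members leaned to CL5 at the low end, a pattern that was looked for after the values were seen. CL5 was the lowest CL rat in 11 of the 12 entries, all but Zbtb16, beside 33.2% of all genes tested. CL7 was the highest CL rat in 6 entries (Tsc22d3 ENSRNOG00000056135, Fkbp5, Sgk1, Klf9, Usp2 and Por), beside 20.8% of all genes. In the FL group FL12 was the highest rat in 7 entries (both of Tsc22d3, Fkbp5, Sgk1, Zbtb16, Usp2 and Por), beside 41.1% of all genes, and the lowest in 4 (both of Nr3c1, Hsd11b1 and Klf9), beside 24.8%. CL6 was the highest CL rat in 5 entries, beside 42.2%. FL2 was the lowest FL rat in 6 entries, beside 51.2%, and the highest in 4, beside 21.2%. FL5 was the lowest in 2, beside 20.7%, and the highest in 1, beside 35.9%. No test was made of these counts, since the members share the rats. The highest rat of a group exceeded the lowest most for Tsc22d3 ENSRNOG00000060899 in the FL group (3.59-fold) and least for Zbtb16 in the CL group (1.05-fold).

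Some glucocorticoid-responsive genes outside the members varied more among the CL rats than between the groups, and these were also named after their values were seen. Dusp1, an immediate early phosphatase, stood at 5.21 FPKM in CL5, 45.67 in CL6 and 43.14 in CL7, and at 36.41 in FL2, 16.76 in FL5 and 4.71 in FL12. Igfbp1, a binding protein of insulin-like growth factors, stood at 137.58, 36.48 and 28.17 FPKM in the CL rats and at 122.18, 95 and 134.72 FPKM in the FL rats. CL5 thus had the least Dusp1 and the most Igfbp1 of the CL rats, and neither gene passed (adjusted p = 0.671 and 0.156), though Igfbp1 did without CL5 (log2 difference 1.85 in place of 1.15, adjusted p = 0.00873, range over the alternatives to 0.409). The log2 difference of Dusp1 was −0.61, and 0.18 without FL12.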
